A study of Mus musculus with 50 samples.

Results

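The 8 genes described here encode enzymes that methylate lysine 4 of histone H3 (H3K4), or close relatives of them, in mouse oocytes: Kmt2a, Kmt2b, Kmt2c, Kmt2d, Kmt2e, Setd1a, Setd1b and Setd7. They were chosen by name and are 8 of the 16614 rows of the count table. Expression was read in 50 single oocytes from females aged 5 weeks, 26 oocytes from 4 mice with floxed Zfp36l2 (labelled F/F-) and 24 oocytes from 4 mice with a conditional knockout (labelled cKO-Zfp36l2). All mice had received 10 IU of PMSG, a gonadotrophin that stimulates follicle growth, 46 hours earlier. Fully enclosed oocytes at the germinal vesicle stage, which is arrested in meiotic prophase, were collected in medium with 5 µM milrinone, an inhibitor of resumption of meiosis, and were stripped of granulosa cells and of the zona pellucida. The labels name neither the Cre line nor the part of Zfp36l2 that is deleted, so the cells in which deletion took place are not given here. The floxed mice contributed 5, 7, 7 and 7 oocytes and the knockout mice 1, 7, 8 and 8, and the mouse was taken as the replicate.

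H3K4 methylation marks active promoters and enhancers. The SETD1 enzymes place most of the trimethyl mark at promoters, KMT2A and KMT2B act at selected and CpG-rich promoters, and KMT2C and KMT2D place the monomethyl mark at enhancers, each inside a complex built on the WDR5, RBBP5, ASH2L and DPY30 core. In growing oocytes KMT2B is known for the broad gain of H3K4 trimethylation that accompanies the end of transcription, and loss of SETD1B in oocytes is known to reduce fertility. KMT2E carries a SET domain related to these enzymes but is not known to methylate H3K4 itself, and SETD7 is a small enzyme without a complex that monomethylates H3K4 in the test tube and several proteins other than histones. ZFP36L2, the targeted protein, binds AU-rich elements in the 3′ untranslated regions of mRNAs and promotes their decay.

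The sites in the members' 3′ untranslated regions that carry the letters TATTTAT, the DNA spelling of the core element bound by the ZFP36 family, are shown here because they are where the targeted protein could meet these mRNAs. The search ran on the transcript strand of the longest annotated 3′ untranslated region of each gene (GENCODE M21, build mm10), and capitals mark the motif.
Setd1b: aggccagggcgTATTTATttccatagcga
Setd1a: gccctcaccccTATTTATtcccccttggt
Kmt2c: gaaactttttgTATTTATtattgaataag
Kmt2d: tggggggTATTTATcTATTTATacatggg
Setd7: ggccagactgtTATTTATagacttactat
Positions are those of the whole printed stretches, flanks included. The Setd1b stretch lies at chr5:123167083-123167111 on the plus strand, with its motif 1088 bases after the stop codon. The Setd1a stretch lies at chr7:127799497-127799525 on the plus strand, with its motif 29 bases after the stop codon. The Kmt2c stretch is at chr5:25273030-25273058, that of the Kmt2d pair at chr15:98833285-98833313 and that of Setd7 at chr3:51520526-51520554, all on the minus strand. Kmt2a, Kmt2b and Kmt2e had no TATTTAT in this window. The shorter TATTTA, which is contained in TATTTAT, occurred 3 times in Kmt2a, 1 time in Kmt2b and not in Kmt2e. Of the tested genes, 13924 have such a region in the annotation, and of these 29.0% held TATTTAT and 48.0% held TATTTA. Longer regions hold it more often: TATTTAT was present in 46.6% of genes with a region within 20% of the length of that of Setd1b (2623 bases), in 29.3% for Kmt2e (1188 bases) and in 62.3% for Kmt2a (4547 bases). A match describes the letters in this window and is not a measured binding site.

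Counts per oocyte summed to between 1746007 and 6233840, and per mouse to between 4332108 (knockout mouse 1, with 1 oocyte) and 44498770. Values are given in CPM, the usual scaling of a gene's count by the total of the oocyte or mouse, so they are shares. No added standard is described in the labels, and a change in share and a change in the RNA content of the oocyte cannot be told apart. Zfp36l2 itself averaged 3.27 ± 0.934 CPM over floxed and 2.0 ± 0.806 CPM over knockout animals (SD, 4 of each), with overlapping groups (log2 fold change -0.78, edgeR adjusted p = 0.208), so its count does not check the labels. All 11 oocyte markers were present, with summed levels of 4407.4 to 5530.8 CPM per floxed mouse and 4535.4 to 5270.0 CPM per knockout mouse. Of these, Figla rose (log2 fold change 0.7, edgeR adjusted p = 0.00618) and Mos fell by 0.32 on the log2 scale (edgeR adjusted p = 0.0159). The 9 listed granulosa and cumulus markers summed to 120 to 176 CPM per floxed mouse and 115 to 252 CPM per knockout mouse, 0 of them called in edgeR (2 higher and 0 lower at an unadjusted p under 0.05) and 1 called higher in DESeq2. Among them Cyp19a1 was at 60.5 to 101 CPM over all mice, Inha at 13.9 to 26.9 CPM in floxed and 23.1 to 58.6 CPM in knockout mice, Kitl at 15.1 to 25.5 and 12.9 to 51.6 CPM, and Foxl2 at no more than 1.0 CPM in any mouse. Inha and Kitl are the 2 genes with an unadjusted p under 0.05. Pecam1, the only gene present from a list of blood, endothelium and stroma markers, fell from 91.1 to 175 CPM in floxed mice to 18.7 to 35.7 CPM in knockout mice. It was counted in every oocyte, at 78.6 to 211 CPM in floxed and 8.09 to 56.9 CPM in knockout oocytes. The cell that gave its RNA was not tested. Mouse 1 of both genotypes stood apart from the other mice for some genes. For example, Bod1, a partner gene of the SETD1 complexes, was at 243 CPM in floxed mouse 1 and 255 CPM in knockout mouse 1, against 121 to 139 CPM in the other 6 mice, so results are also given without these 2 mice where they change.

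In the edgeR quasi-likelihood test of mouse sums, 7 of the 8 genes had enough counts to be tested. Setd1b, Kmt2e and Kmt2a rose in the knockout at a Benjamini-Hochberg adjusted p under 0.05, none fell, and 4 were not called. At an unadjusted p under 0.05, 1 gene (Kmt2c) was lower in edgeR, and DESeq2 called 0 lower. Over all 15029 genes tested, 14.4% were called higher and 13.2% lower, 27.6% in either direction. The median log2 fold change of the 7 genes was 0.36, against -0.006 over all tested genes. The plot of the 8 genes by mouse shows that the groups were fully apart for the same 3 genes, which held for 16.0% of all tested genes with higher knockout values and for 31.0% in either direction.

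**Figure D1:**
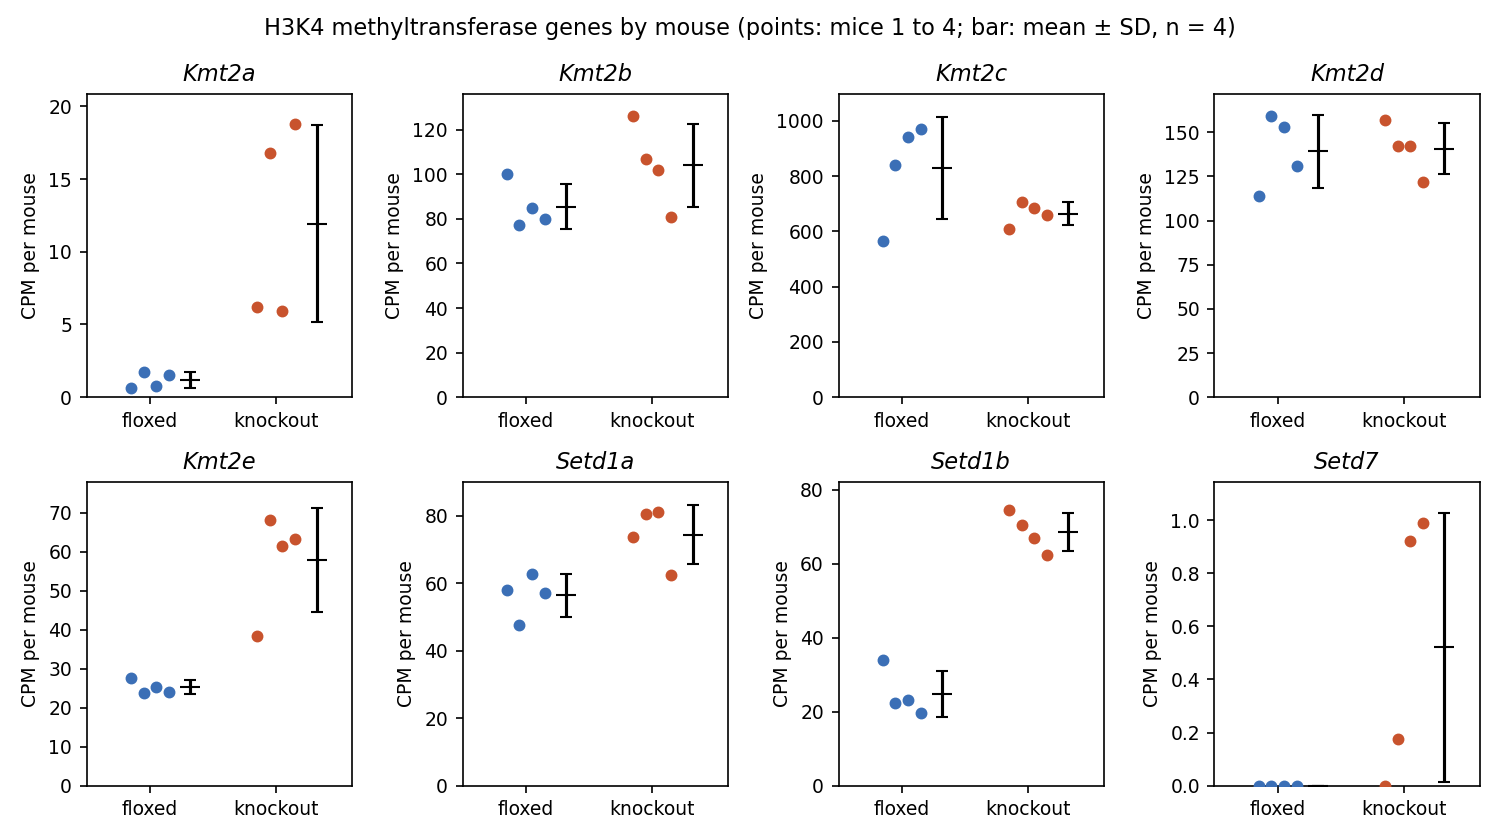
CPM of the 8 genes in each mouse (points, mice 1 to 4 from left to right within a genotype) with mean ± SD (n = 4 mice); every vertical axis is linear, starts at 0 and has its own range. The knockout points of Setd1b (62.4 to 74.6 CPM), Kmt2e (38.5 to 68.3 CPM) and Kmt2a (5.96 to 18.8 CPM) all lie above the floxed points of the same gene.

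Levels between the genes were compared per kilobase of the longest annotated transcript. In floxed mice Kmt2c stood first at 55.4 ± 12.4 CPM per kilobase, and its lowest mouse (37.7) exceeded the highest mouse of every other gene. Kmt2b (10.1 ± 1.22), Setd1a (8.69 ± 0.964) and Kmt2d (7.03 ± 1.04) followed, with mice of neighbouring genes overlapping. Kmt2e (3.45 ± 0.245) and Setd1b (2.8 ± 0.713) came next and overlapped each other, Kmt2a was at 0.0711 ± 0.0333, and Setd7 had no count (SD over mice, n = 4). In knockout mice Kmt2c (44.4), Kmt2b (12.3) and Setd1a (11.5) kept the first 3 places, while Kmt2e (7.91) and Setd1b (7.74) overlapped with Kmt2d (7.1) over mice. Kmt2a (0.725) and Setd7 (0.0703) remained last. With coding length in place of transcript length, Setd1a took place 2 and Kmt2b place 3 in both genotypes, and in knockout mice Setd1b (10.5 to 12.5) lay above Kmt2d (7.27 to 9.35) without overlap.

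Of the SETD1 pair, Setd1b (chr5:123142193-123168629, plus strand) changed by the larger amount. Its level was 34.0, 22.3, 23.2 and 19.7 CPM in floxed mice 1 to 4 and 74.6, 70.5, 66.9 and 62.4 CPM in knockout mice 1 to 4. The groups did not overlap, and the highest floxed mouse was mouse 1. The mean went from 24.8 ± 6.32 to 68.6 ± 5.2 CPM (SD, n = 4 each), a 2.7-fold rise (log2 fold change 1.43, SE 0.18, 95% interval 1.03 to 1.84, edgeR adjusted p = 0.000864). The separation held cell by cell: floxed oocytes had 12.6, 22.3 and 45.7 CPM (lowest, median, highest) and knockout oocytes 45.5, 66.4 and 90.8 CPM, so 23 of 24 knockout oocytes were above the highest floxed oocyte. Without mouse 1 of both genotypes the log2 fold change was 1.53 (edgeR adjusted p = 5.93e-05).

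Setd1a (chr7:127776670-127800122, plus strand), the paralogue of Setd1b, was at 58.0, 47.7, 62.6 and 57.2 CPM in floxed mice and at 73.6, 80.4, 81.2 and 62.3 CPM in knockout mice. Knockout mouse 4 lay inside the floxed range and the other 3 above it. The means were 56.4 ± 6.26 and 74.4 ± 8.74 CPM (SD, n = 4 each). The log2 fold change of 0.36 (SE 0.14, 95% interval 0.06 to 0.67) did not pass in edgeR (adjusted p = 0.0757) and passed in DESeq2 (adjusted p = 0.0447). Among single oocytes, 15 of 24 knockout oocytes exceeded the highest floxed value of 70.1 CPM. In the annotation 51.8% of the exonic bases of Setd1a are shared with a gene model on the same strand, Gm49388, so counting rules could affect its level. Gm49388 is not among the genes of the deposited counts. Both SETD1 genes carry the TATTTAT element shown above. Of genes with a 3′ untranslated region within 20% of the length of that of Setd1a, 17.1% hold it.

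Kmt2e (chr5:23434441-23504235, plus strand), the member with a SET domain but no known H3K4 activity, was at 27.7, 23.8, 25.4 and 24 CPM in floxed mice and at 38.5, 68.3, 61.5 and 63.3 CPM in knockout mice. Floxed mice lay close together, and the lowest knockout value came from mouse 1, whose sum is a single oocyte. The mean rose 2.24-fold, from 25.2 ± 1.8 to 57.9 ± 13.2 CPM (SD, n = 4 each, log2 fold change 1.17, SE 0.19, 95% interval 0.75 to 1.58, edgeR adjusted p = 0.00237). No oocyte of one genotype entered the range of the other: the 26 floxed oocytes spanned 10.3 to 36.1 CPM with a median of 25, and the 24 knockout oocytes 38.4 to 98.2 CPM with a median of 61.1. Without mouse 1 of both genotypes the log2 fold change was 1.31 (edgeR adjusted p = 7.80e-05). The exons of Kmt2e overlap 972 bases of Srpk2 on the opposite strand (9.31% of its exonic bases), and the cDNA kit does not mark strand. Srpk2 itself had a log2 fold change of -0.07 (SE 0.1, edgeR adjusted p = 0.656). Kmt2e is also the gene with neither form of the AU-rich motif in its longest annotated 3′ untranslated region.

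**Figure D2:**
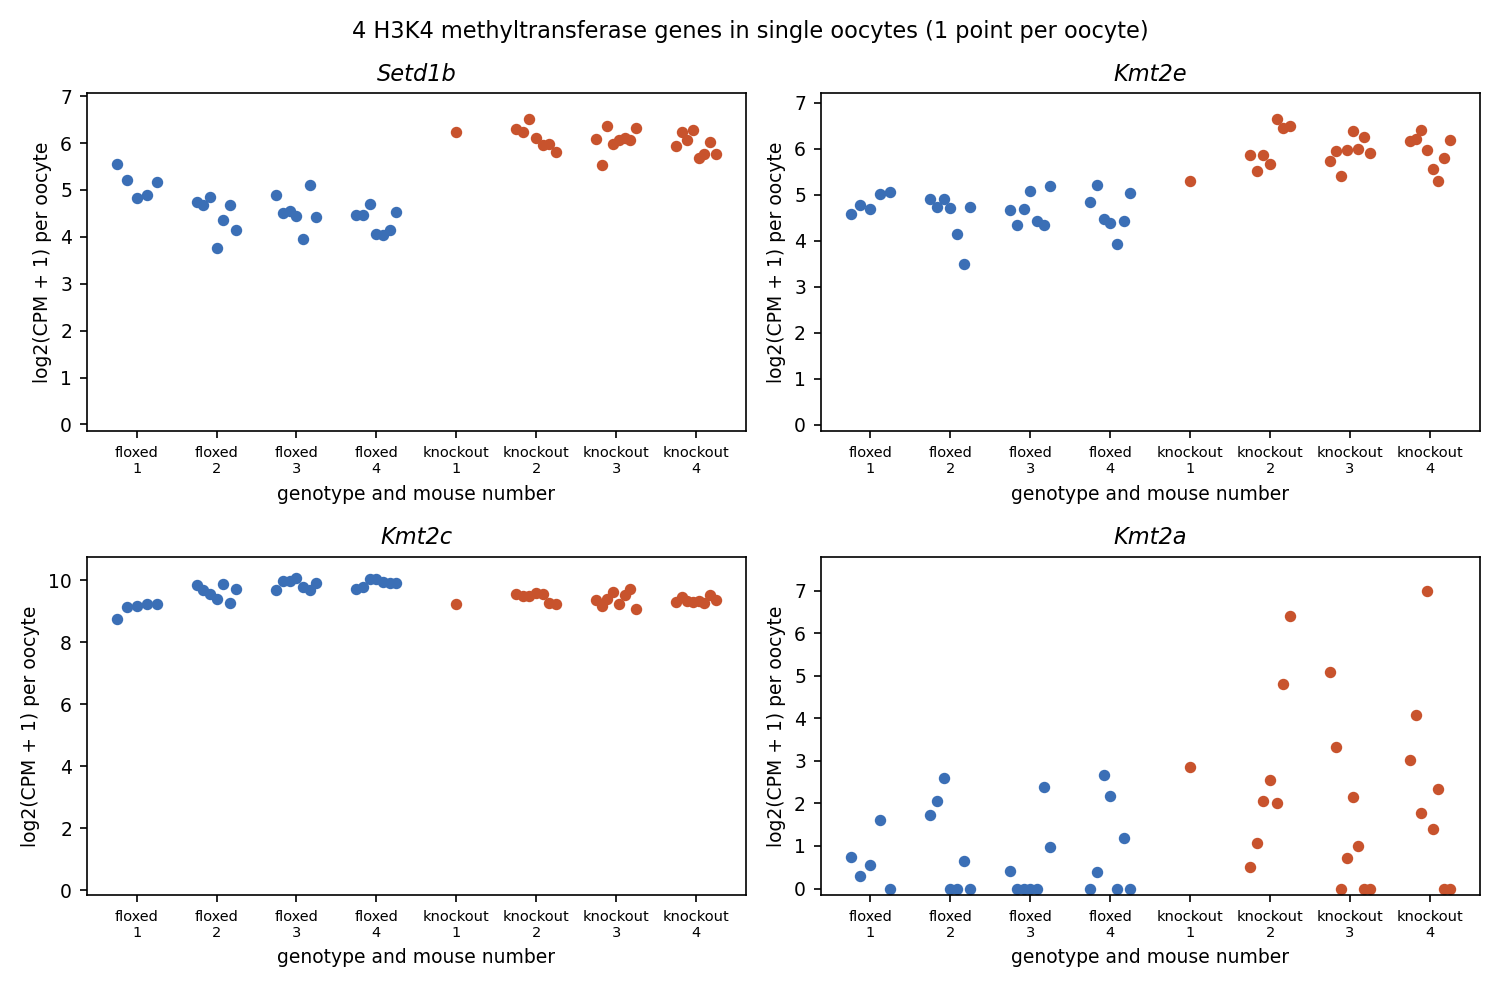
Level of 4 genes in each single oocyte (1 point per oocyte) as log2(CPM + 1), arranged by genotype and mouse number; knockout mouse 1 has 1 oocyte. The genotypes are apart for Kmt2e and meet only at 45.5 to 45.7 CPM for Setd1b, Kmt2c is low in floxed mouse 1 compared with floxed mice 2 to 4, and Kmt2a ranges from 0 to 127 CPM among knockout oocytes.

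Kmt2a (chr9:44803355-44881296, minus strand), which encodes the enzyme that maintains Hox gene expression in development, was the least expressed of the tested members and had the largest fitted fold change. Floxed mice had 0.651, 1.76, 0.756 and 1.52 CPM and knockout mice 6.23, 16.8, 5.96 and 18.8 CPM. All knockout mice were above all floxed mice, and knockout mice 2 and 4 were well above knockout mice 1 and 3. The mean went from 1.17 ± 0.549 to 11.9 ± 6.8 CPM (SD, n = 4 each), a 9.92-fold rise in the fit (log2 fold change 3.31, SE 0.54, 95% interval 2.09 to 4.53, edgeR adjusted p = 0.00264).

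A few oocytes held most of the Kmt2a counts. Counts per oocyte ran from 0 to 27 with a median of 1 in floxed oocytes and from 0 to 638 with a median of 15 in knockout oocytes. The 4 knockout oocytes with 100 counts or more had 638, 369, 190 and 145, and together held 80.6% of the 1665 knockout counts. They came from mice 2, 3 and 4. In the floxed group the 4 highest oocytes held 60.4% of the 134 counts. Kmt2a was counted in 15 of 26 floxed and 19 of 24 knockout oocytes, and in 12 of 23 and 19 of 24 after thinning every oocyte to 3000000 counts, with 3 shallower oocytes left out. The median oocyte of each mouse had 0.469, 0.573, 0 and 0.311 CPM in floxed mice and 6.23, 3.14, 0.82 and 3.24 CPM in knockout mice, so the groups were also apart on this measure (exact two-sided permutation p = 0.0286, unadjusted, the smallest that 70 arrangements allow). The mean of these medians went from 0.338 CPM in floxed to 3.36 CPM in knockout mice. On the log2(CPM + 1) scale the difference was 1.7. At such low values the added 1 shrinks it, so it cannot be set against the fitted log2 fold change. Granulosa markers summed to 230 CPM in the oocyte with 638 counts, 166 CPM in that with 369, 326 CPM in that with 190 and 278 CPM in that with 145, so 3 of the 4 were above the knockout median, where knockout oocytes had 115, 194 and 326 CPM (lowest, median, highest). The part of these markers in the Kmt2a values was not tested.

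Kmt2b (chr7:30568858-30588726, minus strand), the paralogue of Kmt2a, was abundant in both genotypes. It was at 100, 77.4, 84.7 and 80.0 CPM in floxed mice and at 126, 107, 102 and 81.0 CPM in knockout mice. Knockout mouse 4 lay within the floxed range and knockout mice 1 to 3 above it. The means were 85.6 ± 10.3 and 104 ± 18.3 CPM (SD, n = 4 each), and the log2 fold change of 0.24 (SE 0.15, 95% interval -0.09 to 0.57) was not called (edgeR adjusted p = 0.25). Knockout oocytes of Kmt2b also covered a wide range, 46.6 to 148 CPM, against 58.0 to 132 CPM in floxed oocytes.

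Kmt2c (chr5:25271798-25498755, minus strand), the most abundant member, was the only member with a lower knockout mean, and its call turned on mouse 1. Floxed mice had 565, 842, 943 and 969 CPM and knockout mice 609, 705, 684 and 659 CPM. Floxed mice 2 to 4 lay above every knockout mouse and floxed mouse 1 below every one. The means were 830 ± 185 and 664 ± 41.2 CPM (SD, n = 4 each), and the log2 fold change of -0.36 (SE 0.16) was not called (edgeR adjusted p = 0.123, and 0.0492 before adjustment). Without floxed mouse 1 it was -0.55 (edgeR adjusted p = 0.00105), and without mouse 1 of both genotypes -0.51 (edgeR adjusted p = 0.000286), both called lower. Over all genes, these fits called 2521 of 15381 and 3549 of 15332 tested genes lower, against 1984 of 15029 with all mice. The 5 oocytes of floxed mouse 1 all lay between 434 and 607 CPM, while the oocytes of floxed mice 2 to 4 lay between 624 and 1082.7 CPM. Of the 26 floxed oocytes, 15 exceeded the highest knockout oocyte, at 840 CPM. Library depth moved with several members: regressing log2 count on log2 depth over the 26 floxed cells gave slopes of 1.41 for Kmt2c, 1.4 for Setd1a and 1.23 for Kmt2e, where 1 would keep the CPM constant, and 0.91 to 1.07 for Kmt2b, Kmt2d and Setd1b. The oocytes of floxed mouse 1 had totals of 2997631 to 4545812. The shallowest oocytes of floxed mouse 2, with totals of 1746007 and 1901439, had 624 and 675 CPM of Kmt2c, above every oocyte of mouse 1. They were also the lowest of floxed mouse 2, whose other oocytes had 753 to 952 CPM. The part of depth in the Kmt2c values was not tested. Thinning all oocytes to 3000000 counts gave a log2 fold change of -0.41 (edgeR adjusted p = 0.0511).

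Kmt2d (chr15:98831669-98871204, minus strand), the paralogue of Kmt2c, showed no called difference. Floxed mice had 114, 159, 153 and 131 CPM and knockout mice 157, 142, 142 and 122 CPM, with the knockout range inside the floxed range. The means were 139 ± 20.7 and 141 ± 14.3 CPM (SD, n = 4 each). The fitted change on the log2 scale was -0.03 with an SE of 0.13 (edgeR adjusted p = 0.899), and its 95% interval of -0.33 to 0.27 bounds the change that 4 mice a group leave possible. The 2 neighbouring TATTTAT copies shown above are in this gene, and 49.1% of genes with a 3′ untranslated region of similar length hold at least 1.

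Setd7 (chr3:51515319-51560879, minus strand), the enzyme outside the complexes, was near the limit of detection and did not enter the test. Not one of 115065729 counts from the 26 floxed oocytes fell in it, which allows a share of up to 11.5% of oocytes with a count. This limit treats the oocytes as independent, although they come from 4 mice. Among the 24 knockout oocytes 8 had counts, of 2, 2, 2, 12, 2, 27, 2 and 40, or 89 of 125564676 counts. The knockout mice were at 0, 0.175, 0.921 and 0.988 CPM, so knockout mouse 1 was at 0 like all floxed mice. Against a floor of 3 counts over the floxed group (0.0261 CPM), the pooled knockout level of 0.709 CPM was 27.2-fold higher. The floor covers counting error in the floxed group only, and the knockout level was taken without its error, so the ratio is not a lower bound. Of the knockout oocytes, 2 gave most of the counts, and the median oocyte of every mouse was at 0 CPM. Knockout oocyte 4 of mouse 4 had the highest count of both Setd7 and Kmt2a. When genes with low counts were kept, Setd7 was called higher by edgeR (adjusted p = 0.0276) and DESeq2 (adjusted p = 0.0111). Even values made up 61.5% of all counts from 1 to 20 in the table, so a count of 2 may not be 2 independent reads.

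Ratios of paralogues within a mouse do not depend on library scaling, and an exact permutation test (two-sided, over mice) was applied to 3 pairs. The log2 ratio of Setd1a to Setd1b counts was 0.77, 1.09, 1.43 and 1.54 in floxed mice and -0.02, 0.19, 0.28 and 0.0 in knockout mice. The groups were apart, with a knockout minus floxed difference of -1.1 (p = 0.0286, adjusted over the 3 pairs p = 0.0429, exact permutation). On the linear scale the mean ratio went from 2.31 to 1.08, and Setd1a had more counts than Setd1b in 26 of 26 floxed and 16 of 24 knockout oocytes. The log2 ratio of Kmt2a to Kmt2b moved from -6.29 ± 0.85 to -3.3 ± 1.08 (SD, n = 4 each), a difference of 2.99 (adjusted exact permutation p = 0.0429). That of Kmt2c to Kmt2d was 2.55 ± 0.26 in floxed and 2.24 ± 0.2 in knockout mice (difference -0.31, adjusted exact permutation p = 0.1429). With the mean of per-oocyte ratios in place of the ratio of sums, the differences for Kmt2a/Kmt2b and Setd1a/Setd1b were 2.34 and -1.11, each with an adjusted exact permutation p = 0.0857. These ratios use the same counts as the tests of single genes and are not further evidence.

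**Figure D3:**
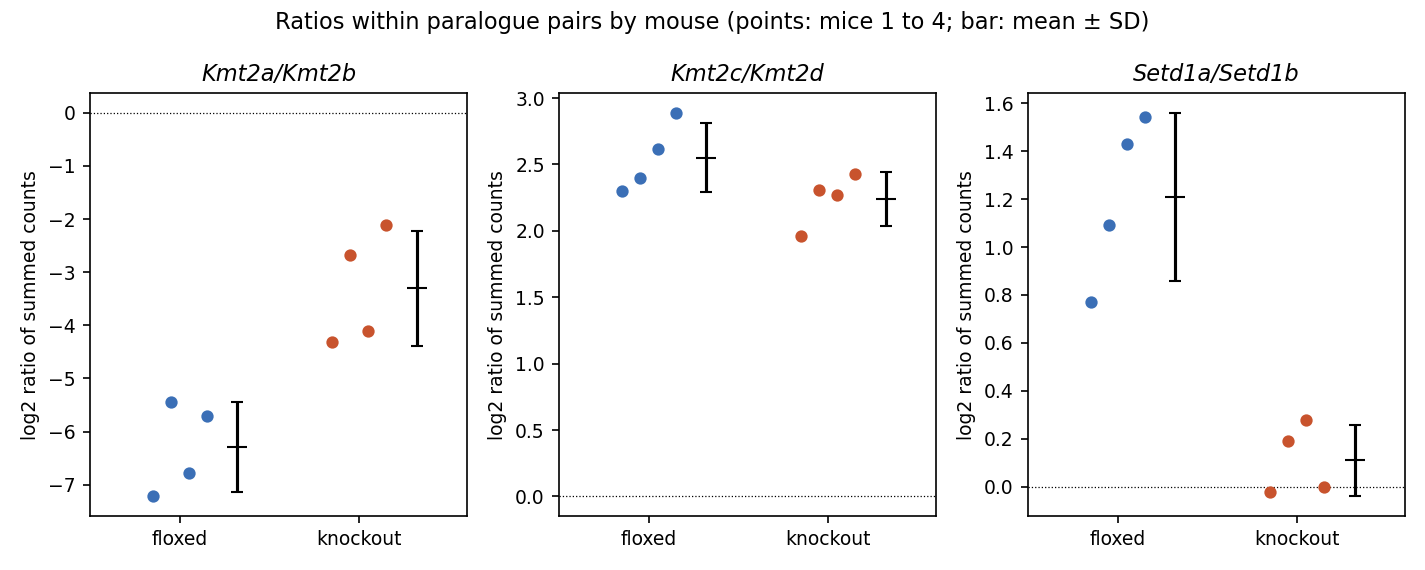
Log2 ratio of summed counts within 3 paralogue pairs in each mouse (points, mice 1 to 4 from left to right within a genotype) with mean ± SD (n = 4 mice); the dotted line marks equal counts. Knockout mice have ratios of Setd1a to Setd1b near 0 (-0.02 to 0.28), below the floxed mice (0.77 to 1.54), while the ratio of Kmt2c to Kmt2d overlaps between genotypes.

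The members also differed in how much oocytes of the same mouse varied. The SD of log2(CPM + 1) between oocytes, averaged over mice, was 0.17 for Kmt2c and 0.16 for Kmt2d in floxed mice, below the median of 0.29 over 9704 genes at 10 CPM or more. Kmt2b (0.22 in floxed, 0.37 in knockout), Setd1a (0.23 and 0.25), Setd1b (0.33 and 0.24) and Kmt2e (0.38 and 0.37) lay around that median, which was 0.3 in knockout mice. Kmt2a had an SD of 0.93 in the 4 floxed and 2.09 in the 3 knockout mice with more than 1 oocyte. With 4 against 3 mice these spreads were not tested, and low counts widen them.

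Across the 50 oocytes, after subtracting each genotype's mean, the members did not form a single pattern. Pearson correlations of log2(CPM + 1) between members ran from -0.46 (Kmt2c with Setd1b) to 0.4 (Kmt2b with Setd1a), and were 0.02 for Setd1a with Setd1b, 0.19 for Kmt2c with Kmt2d and -0.11 for Kmt2a with Kmt2b. Among 9703 candidate genes, those most like Kmt2c were Usp34 (r = 0.89), Mycbp2 (0.87) and Fndc3a (0.87). Those most like Setd1a were Tmem123 (0.73), Foxo1 (0.69) and Ppm1a (0.67), and those most like Kmt2b were Tkt (0.7), Vps9d1 (0.69) and Myo9b (0.67). For Setd1b the nearest were 1810026J23Rik, Gnai2 and Akirin1, each at r = 0.71. Kmt2d (Wdtc1 0.6, Tmbim6 and Baz2a 0.55) and Kmt2e (Etf1 0.53, Arl1 0.5, Clvs2 0.48) had no gene as close. These are descriptions over oocytes that share mice, depth and library chemistry.

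Of 17 genes for subunits and processing factors of the KMT2 and SETD1 complexes, 5 rose, 1 fell and 11 were not called, with a median log2 fold change of 0.01. The shares called among all tested genes were 14.4% higher and 13.2% lower. In the shared core, Ash2l, whose protein stimulates the catalytic subunits, had 101, 70.8, 85.1 and 78.4 CPM in the floxed mice against 123, 156, 170 and 165 CPM in those with the knockout, a 1.79-fold rise (log2 fold change 0.84, SE 0.13, edgeR adjusted p = 0.00224). Rbbp5, its partner in that core, rose 1.34-fold (edgeR adjusted p = 0.0277), a call lost when any of 5 mice was left out (adjusted p up to 0.0894). Wdr5 and Dpy30 were not called (log2 fold changes 0.15 and -0.19).

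The partners outside the shared core were divided. None of the 4 genes listed for the SETD1 complexes alone (Cxxc1, Wdr82, Bod1 and Bod1l) was called in edgeR or DESeq2 beside the rise of Setd1b, and 1 (Cxxc1) was higher at an unadjusted p under 0.05. For the KMT2A and KMT2B complexes, Men1, which encodes the menin adaptor, rose 1.65-fold (log2 fold change 0.73, edgeR adjusted p = 0.00638). Hcfc1, whose protein is also part of the SETD1 complexes, rose 1.7-fold (log2 fold change 0.77, edgeR adjusted p = 0.00513). Psip1, Hcfc2 and Tasp1, the gene of the protease that cleaves KMT2A, were not called. For the KMT2C and KMT2D complexes, Pagr1a rose 1.88-fold (log2 fold change 0.91, edgeR adjusted p = 0.00251) and Ncoa6, a coactivator subunit, fell by 0.45 on the log2 scale (edgeR adjusted p = 0.00964), from 209 ± 20.1 to 158 ± 11.2 CPM (SD, n = 4 each). Kdm6a and Paxip1 were not called. Without mouse 1 of both genotypes, Psip1, Bod1l and Kdm6a were also called lower and Paxip1 higher. Over all genes, that fit called 3182 higher and 3549 lower of 15332 tested, against 2164 and 1984 of 15029 with all mice.

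**Figure D4:**
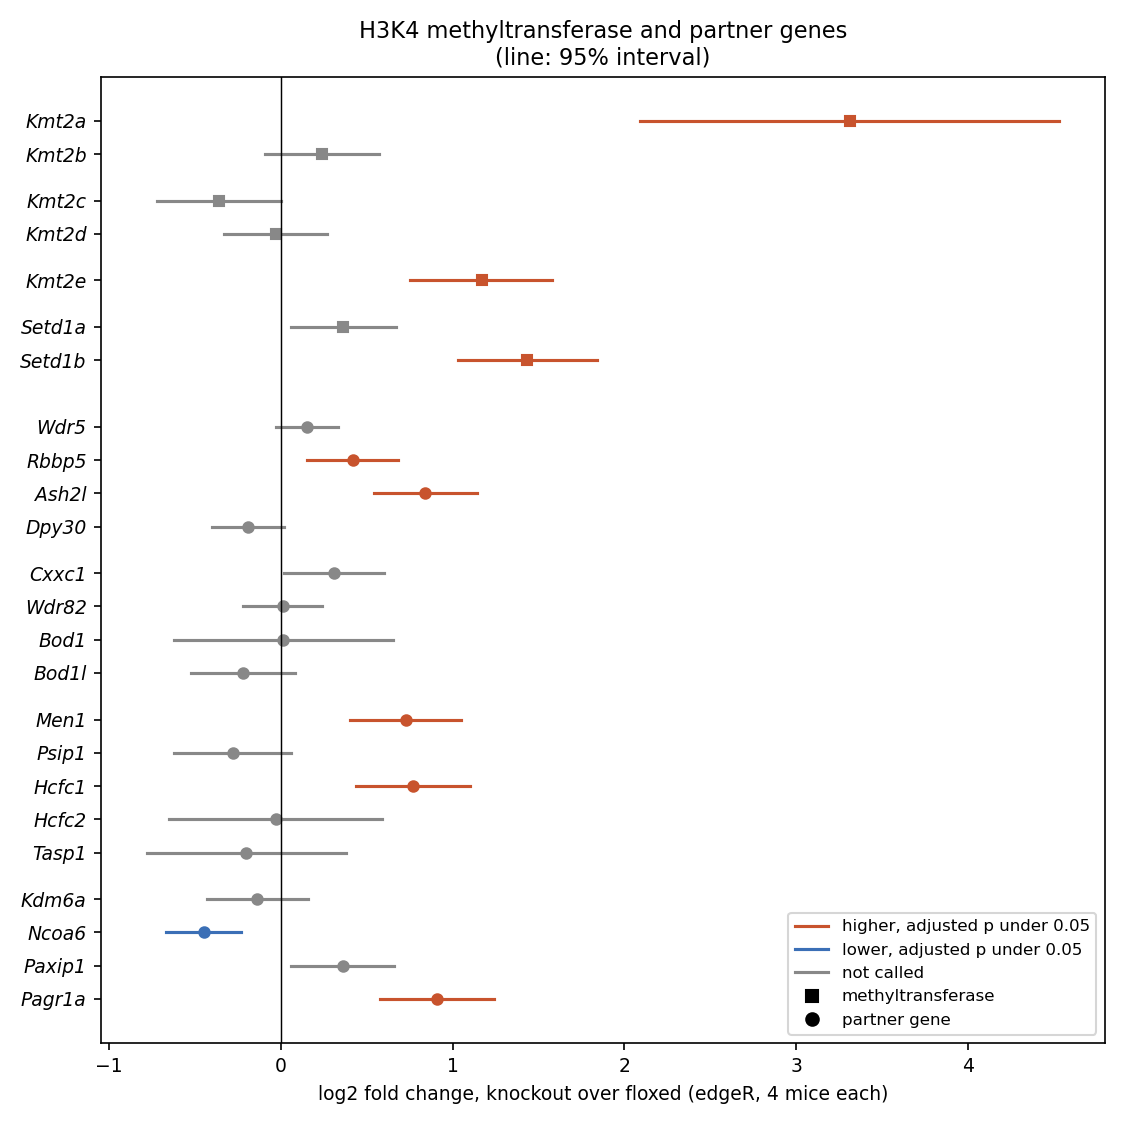
Log2 fold change of knockout over floxed mice for the 7 tested methyltransferase genes (squares) and 17 partner genes (circles), with 95% intervals from edgeR on 4 mice per genotype; gaps separate the groups of complexes. Kmt2a, Kmt2e and Setd1b are called higher among the methyltransferases, Ash2l, Rbbp5, Men1, Hcfc1 and Pagr1a higher and Ncoa6 lower among the partners.

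Of 5 measured genes for demethylases, the enzymes that remove H3K4 methylation, 3 rose, 0 fell (0 also at an unadjusted p under 0.05 and in DESeq2) and Kdm1a and Kdm5b were not called, beside the 14.4% of all tested genes called higher. Without mouse 1 of both genotypes, Kdm1a was called lower (log2 fold change -0.33, edgeR adjusted p = 0.0296). Kdm5a, which encodes a demethylase of the trimethyl mark, had 10.9, 7.72, 11.1 and 7.97 CPM in the floxed mice against 36.7, 39.9, 40.3 and 31.6 CPM in those with the knockout, a 3.84-fold rise (log2 fold change 1.94, edgeR adjusted p = 0.000368). Kdm5c rose 1.89-fold (edgeR adjusted p = 0.00207) and Kdm1b, the demethylase needed in oocytes for DNA methylation of imprinted genes, 1.7-fold (edgeR adjusted p = 0.00079). Of 11 genes whose proteins read the H3K4 state, 2 rose, 1 fell and 8 were not called. Chd1, a remodeller that binds the methylated tail, rose 1.98-fold (edgeR adjusted p = 0.00217). Ing2 rose 1.52-fold (edgeR adjusted p = 0.0432), a call lost when any of 7 mice was left out (adjusted p up to 0.113). Dnmt3l, which recognises unmethylated H3K4, fell by 0.27 on the log2 scale (edgeR adjusted p = 0.0342), a call lost when any of 4 mice was left out (adjusted p up to 0.0936). With mouse 1 of both genotypes left out, 2 readers were called higher and 4 lower. Of 4 other genes described as H3K4 methyltransferases, 0 were called in edgeR, 2 were lower at an unadjusted p under 0.05 and 2 were called lower in DESeq2, with log2 fold changes of -0.6 for Smyd3, -1.15 for Prdm9, -1.4 for Smyd2 and 0.16 for Ash1l. The first 3 had lower knockout means and were called lower once mouse 1 of both genotypes was left out (edgeR adjusted p = 0.00094, 0.00325 and 0.000775). In that fit 3549 of all 15332 tested genes were called lower, against 1984 of 15029 with all mice.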

How the data were processed

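Single-oocyte RNA was extracted with Trizol and converted with the SMARTer Ultra Low Input v3 kit, per the labels' protocols. STAR and the mm10 build are named in the submitters' processing notes. How reads were counted, and how multi-mapped, duplicate and antisense reads were handled, was not given in the sources used. The authors deposited whole-number counts per gene, not normalized, in 1 table of 16614 genes and 50 oocytes. Columns were matched by header name, 3 of them by sample title. The labels give no batch, and nothing says whether mice shared litters. Within mice, all 150 oocyte pairs differed by more than sampling noise (chi-square per degree of freedom 5.39 to 28.25).

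Counts were summed per mouse and tested in edgeR 4.0.16 (R version 4.3.3, TMM, filterByExpr with a minimum count of 10, robust quasi-likelihood test, Benjamini-Hochberg adjustment over all 15029 tested genes, threshold 0.05). Standard errors come from the F statistic. Mice varied with a biological coefficient of variation of 35.4%. CPM, SD and exact permutation tests (scipy 1.17.1, Python 3.11.15) were computed from the deposited counts. Pair ratios used a pseudocount of 0.5. PCR copies are not independent molecules, so floors cover counting error only. On simulated data for this comparison (15029 genes), the edgeR recovery rate was 0% at a 1.5-fold change, 10% at 2-fold and 92% at 4-fold, and it called 0.0337% of unchanged genes. The simulation gave every gene the common coefficient of variation and changed 50 genes at each fold. In the data the variation differs between genes and 27.6% of genes were called. These rates therefore do not give the power for a single gene here.

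Alternatives were RLE size factors, DESeq2 1.42.0, limma 3.58.1 voom, no filter, thinning to 3000000 counts, a replicate block and leaving out mice. The median oocyte per mouse was added after the Kmt2a counts were seen. Transcript lengths and 3′ untranslated regions come from GENCODE M21, matched by symbol (14862 rows) or accession (552), with 1200 rows not matched. The longest annotated transcript of Kmt2c lacks most of its 3′ untranslated region, which was taken from a shorter transcript.

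The members and the lists of partners, demethylases, readers and markers were chosen with earlier results of these data known. Named genes were all members, genes of those lists, and for each member at 10 CPM or more the 3 genes with the highest Pearson r over oocytes.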

Additional observations from a re-analysis of the deposited data

Results flagged for a closer look

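In each group of 4 to 10 values, the gap between the highest or lowest value and its nearest neighbour was compared with Dixon's 95% limit. For normally distributed values, chance passes this limit in about 1 of 20 groups. Of 39 groups of mice 1 passed: Pagr1a, a KMT2C and KMT2D complex gene, was at 71.3 CPM in floxed mouse 1, with the next floxed mouse at 48.7 CPM. Of 52 groups of oocytes of a mouse 7 passed, and 4 of these concern Kmt2a.

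The Kmt2a level was 4.23 CPM in oocyte 6 of floxed mouse 3 (next 0.958), 83.2 CPM in oocyte 8 of knockout mouse 2 (next 27.2), 33.3 CPM in oocyte 1 of knockout mouse 3 (next 8.96) and 127 CPM in oocyte 4 of knockout mouse 4 (next 16.0). Setd7 stood out at 5.5 CPM in oocyte 8 of knockout mouse 3 (next 1.92) and at 7.97 CPM in oocyte 4 of knockout mouse 4 (next 0.411), the second being the oocyte with the highest Kmt2a level. Oocyte 8 of knockout mouse 3, by contrast, had 0 Kmt2a counts. Kmt2c was at 434 CPM in oocyte 5 of floxed mouse 1, below the other 4 oocytes of that mouse.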

How the results depend on the processing

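Setd1b, Kmt2e and Kmt2a were called higher in every alternative fit. For the median oocyte of each mouse, each of these genes had an exact permutation p = 0.0286. That p is unadjusted and the smallest that 70 arrangements allow, so it is not counted as a call. Log2 fold changes were 1.34 to 1.57 for Setd1b, 1.03 to 1.31 for Kmt2e and, over the fits, 2.96 to 3.56 for Kmt2a. The Kmt2a difference between median oocytes was 1.7 on the log2(CPM + 1) scale, which is not that of the fits. The 3 calls became 5 in DESeq2, with Setd1a and Setd7. Members called lower went from 0 to 1 (Kmt2c) under the replicate block (log2 fold change -0.33, adjusted p = 0.0459), with mouse 1 of both genotypes left out, and in the range of 0 to 1 over the fits without one mouse. The Kmt2d log2 fold change, never called, ranged from -0.16 to 0.04 over those fits, positive without floxed mouse 2 (0.04) or mouse 3 (0.02). Partners called lower were 2 in limma voom, 2 under the block, 4 with mouse 1 of both genotypes left out and 1 to 2 without one mouse. Demethylases called lower were 1 (Kdm1a) with mouse 1 of both left out. Readers called lower were 2 after thinning, 2 in voom, 2 under the block, 4 with mouse 1 of both left out and 0 to 3 without one mouse, and readers called higher 1 to 2 without one mouse. Other methyltransferases called lower were 1 with RLE factors, 2 in DESeq2, 2 after thinning, 3 in voom, 2 under the block, 3 with mouse 1 of both left out and 0 to 3 without one mouse. The cause of these changes was not tested.

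The pair differences for Kmt2a/Kmt2b and Setd1a/Setd1b were 2.34 and -1.11 with means of per-oocyte ratios (adjusted p = 0.0857 each, exact permutation). Within mouse numbers they were 2.99 and -1.1 under the replicate block (the exact sign-flip test of 4 pairs cannot reach the threshold). Deviations of same-numbered mice correlated at 0.316, -0.004, 0.247 and 0.18, so 3 of 4 pairs were above 0.1. Not every mouse correlated best with its own number, and the labels do not say that a number marks a shared litter, batch or day. Over all genes, the block gave 2876 higher and 2947 lower calls against 2164 and 1984, each of 15029 tested genes. With mouse 1 of both left out there were 3182 and 3549 of 15332. After thinning there were 2019 higher and 2367 lower calls, and without one mouse 1359 to 2538 higher and 1219 to 2822 lower. Depth limits Setd7 and floxed Kmt2a, which have few or no counts per oocyte.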
